A study of Mus musculus with 15 samples.

Results

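Bone marrow labelled as acute myeloid leukaemia (AML) was compared with whole wild-type bone marrow by bulk sequencing of total RNA from mice, extracted with TRIzol and prepared as stranded TruSeq libraries. The comparison used 11 of the 15 samples of the series, chosen by their labels alone. They were 7 AML marrows of the genotype NUP98-NSD1/FLT3-ITD and 4 wild-type whole marrows, and the 4 wild-type lineage-negative marrows entered the fit without being compared here. Of 20456 protein-coding genes in the table, 14149 had a deposited value of at least 10 in at least 4 of the 15 libraries and were tested. The leukaemic mice are described as transgenic, and both alterations are given for all 7. The promoters that drive them, the strain, the age and the number of animals behind a sample are not given in the sources used here. If samples of a group share an animal or a culture, the p-values measure only the spread between these samples.

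NUP98-NSD1 fuses a nuclear pore protein to a histone methyltransferase, and leukaemias with it are known for HOXA gene expression. FLT3-ITD is an internal tandem duplication that leaves the receptor tyrosine kinase FLT3 active without its ligand and signals through STAT5 and the MAP kinases. Normal whole marrow is a mixture in which erythroblasts, granulocytes and their precursors, monocytes and B cell precursors make up most cells, with eosinophils, basophils, megakaryocytes, dendritic cells and stroma as smaller parts.

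The values are normalized counts: the authors divided the estimated reads of each gene by a size factor for the library. On that scale AML lay above whole marrow for most genes (median log2 difference 0.67 over the 18941 genes kept). The libraries were therefore rescaled by trimmed mean of M values (TMM), after which that median was -0.01. All levels below are TMM-scaled normalized counts, called scaled counts, and a log2 difference is AML minus whole marrow on log2(scaled count + 1), with its standard error (SE) from limma. That error also takes in the spread among the lineage-negative libraries, since limma pools the residuals of all 15. A gene is said to have risen or fallen when its adjusted p was under 0.05 and the difference was at least 1 in log2. The estimated depth was 20.3 to 35.1 M reads in AML and 11.4 to 17.2 M in whole marrow, so each whole marrow library was shallower than each AML library. The value of 3 reads, used as a floor, was 2.29 to 3.42 scaled counts in AML and 3.95 to 5.69 in whole marrow. Depths and floors cover counting error only.

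Some libraries stood apart from the other libraries of their group in genes that marrow cells are not known to use. The mean over 1417 olfactory and vomeronasal receptor genes, which belong to sensory neurons, was 8.98 to 28.7 scaled counts in whole marrow, highest in replicate 1. In AML it was 0.403 to 3.52, with AML replicate 6 at 3.52 and replicate 5 at 1.12. Of the 1417, 230 could be tested and 1187 could not. Of the 230, 216 were lower in AML (93.9%, against 16% of all genes tested), with a median log2 difference of -4.28. A gene could pass the filter on the 4 whole marrow libraries alone, where these genes are highest. The count therefore follows in part from the filter and is no separate result. Genes listed at 0 made up 7.12% to 15.7% of the table in whole marrow and 23.6% to 41.4% in AML. The plot of receptor genes and genes at 0 by library shows both measures. A second group of genes moved the same way. Gm10800, Gm10801 and Gm10718, predicted genes chosen here after their values were seen, together held 3.31% to 7.30% of all scaled counts in whole marrow. They held 4.51% in AML replicate 6, 1.12% in AML replicate 5 and at most 0.0415% in each of the other 5 AML libraries. Counts are therefore also given without AML replicates 5 and 6 and without whole marrow replicate 1. The part of these signals in the results was not tested, and since they move with the groups, a low-level fall in AML and a background in whole marrow cannot be told apart.

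**Figure D1:**
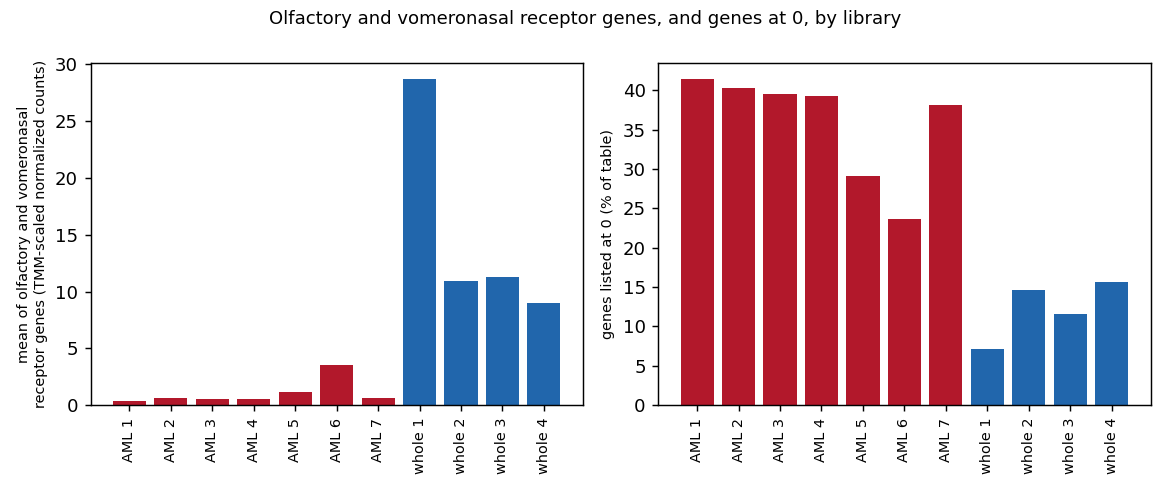
Bars give, for each whole marrow and AML library, the mean scaled count of 1417 olfactory and vomeronasal receptor genes (left) and the percentage of genes in the table listed at 0 (right). The whole marrow libraries sit between 8.98 and 28.7 on the left, above all AML libraries, and between 7.12% and 15.7% on the right, below all AML libraries.

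Most red cell, eosinophil, basophil, megakaryocyte and B cell genes tested fell in AML marrow, while 7 of 10 MHC class II genes and 8 of 15 genes of conventional dendritic cells rose. Smaller shares of the interferon-stimulated (13 of 35), Toll-like receptor (7 of 22) and monocyte and macrophage genes (10 of 35) rose, and most neutrophil granule genes passed the test in neither direction. In all, 738 protein-coding genes rose (5.22% of those tested) and 2266 fell (16%), so that 24.6% of the called genes were higher in AML. The direction of this split depended on the scaling. With the deposited size factors 4122 genes were higher and 1605 lower (72.0% higher), with quantile scaling 1274 and 1829 (41.1%), and with the receptor level of each library subtracted 1643 and 1658 (49.8%). That subtraction set results under 0 to 0 and took more from whole marrow than from AML, which by itself moves low genes upward. Since the median of all genes was 0.67 on the deposited scale and -0.01 after TMM, every difference below is relative to the TMM median. Without AML replicates 5 and 6, 896 rose and 2355 fell, and without whole marrow replicate 1, 721 rose and 2030 fell. Low levels made up much of the falls: 1016 of the 2266 genes that fell (44.8%) had a whole marrow mean no higher than 42.9 scaled counts, the 95th percentile of the receptor genes. When genes were required to have a mean of at least 50, 654 rose and 746 fell (46.7% higher). In the scatter of group means the cloud of receptor genes overlies the low end of the genes that fell. In bulk samples, fewer cells of a type and less RNA per cell cannot be told apart.

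**Figure D2:**
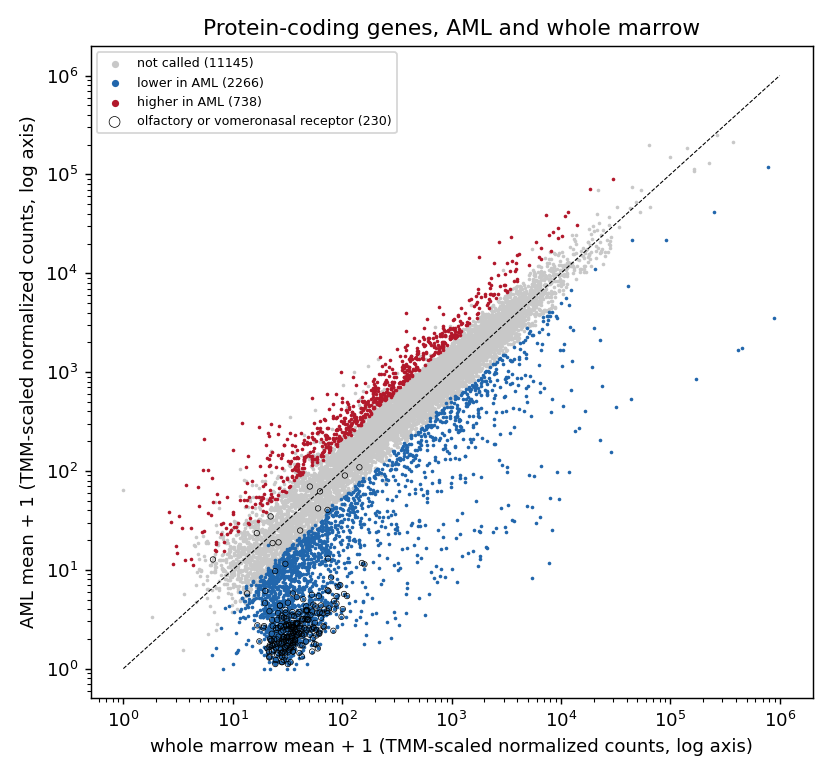
Each point is 1 of 14149 protein-coding genes, with its mean scaled count plus 1 in 4 whole marrow libraries (x, log axis) and in 7 AML libraries (y, log axis). Red points are the 738 genes that rose in AML, blue points the 2266 that fell, grey points those not called, and circles mark the 230 receptor genes, most of which lie at the low end of the blue points.

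Terminal erythroid genes had the lowest median of the lists described here. Of 38 tested, 37 fell and none rose, against 16% of all genes tested that fell, and the median log2 difference was -7.11. The beta-globin Hbb-bs had 747289, 806849, 925824 and 1092250 scaled counts in whole marrow and 172 to 11517 (median 1558) in AML. All 7 AML libraries lay below all 4 whole marrow libraries, with AML replicate 3 highest and replicate 1 lowest (log2 difference -9.09, SE 0.94, adjusted p = 1.22e-06). The 4 globin genes Hba-a1, Hba-a2, Hbb-bs and Hbb-bt together held 7.24% to 10.6% of scaled counts in whole marrow and 0.00127% to 0.111% in AML. Hba-a1 and Hba-a2 are near-identical copies, as are Hbb-bs and Hbb-bt in part, so the split of reads within each pair is uncertain. The log2 differences of Hba-a2 and Hbb-bt were -9.21 and -8.87, and those values were -8.59 and -8.25 without AML replicate 1.

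The fall ran through membrane, cytoskeleton and transcription factor genes of the red cell. The anion exchanger Slc4a1 had 38403, 38047, 45760 and 53133 scaled counts in whole marrow and 11.9 to 1918 (median 237) in AML (-7.45, SE 0.93, adjusted p = 9.03e-06), and the groups did not overlap. Epb42, the band 4.2 protein of the membrane skeleton, fell with a log2 difference of -8.11, and the spectrin Sptb with -6.08. Trim10 (-7.99), Ermap (-7.61), Cldn13 (-7.80) and Sowaha (-7.93) were among the 15 largest falls. Each of those 4 had AML libraries at or under the 3-read floor, so the size of the difference depends on the value of 1 added before the logarithm: with 5 added, Cldn13 was -6.99 and Sowaha -6.84. Without AML replicate 1, Ermap was -6.84. Among erythroid transcription factors, Klf1 was -7.29 (SE 0.42), Gata1 -5.95 (SE 0.39) and Tal1 -5.01 (SE 0.28). Epor, the erythropoietin receptor, was -6.57 (SE 0.37) and the transferrin receptor Tfrc -2.28 (SE 0.23). Nfe2, which also acts in megakaryocytes, was the member not called, at -0.74 (SE 0.17). All 38 members lay lower in every AML library than in any whole marrow library, against 15.8% of all genes tested, and none of the falls was in the receptor range of whole marrow levels.

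Because these genes fell together, their promoters are shown for the binding motif of GATA factors, which drive erythroid transcription. The motif was searched as AGATAA or TGATAA on either strand in RefSeq windows of 300 bases, from 250 before to 50 after the transcription start (build GRCm38.p6). It was present in 16 of the 29 erythroid genes with a window (55.2%) and in 11.1% of the 11194 tested genes with one. The same motif was present in 3 of 7 MHC class II windows (42.9%) and 6 of 27 interferon-stimulated windows (22.2%). The sequences run 5′ to 3′ on the strand of the gene from 15 bases before the motif to the start, and capitals mark the motif on whichever strand it was found. The windows lie at chr11:32283474-32283671, plus strand for Hba-a1, chr7:103827929-103828153, minus strand for Hbb-bs, chrX:150547316-150547416, plus strand for Alas2 and chr8:84901887-84901981, plus strand for Klf1. A match describes letters only.
Hba-a1: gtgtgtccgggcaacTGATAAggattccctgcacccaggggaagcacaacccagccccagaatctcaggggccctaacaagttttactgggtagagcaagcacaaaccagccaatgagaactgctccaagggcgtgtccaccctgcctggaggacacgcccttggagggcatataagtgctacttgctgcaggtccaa
Hbb-bs: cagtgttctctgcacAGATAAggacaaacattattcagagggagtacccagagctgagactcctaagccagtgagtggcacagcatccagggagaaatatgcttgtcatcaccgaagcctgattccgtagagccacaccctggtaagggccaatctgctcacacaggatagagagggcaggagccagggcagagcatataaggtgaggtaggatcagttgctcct
Alas2: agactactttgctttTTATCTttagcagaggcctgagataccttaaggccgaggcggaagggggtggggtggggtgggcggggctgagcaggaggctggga
Klf1: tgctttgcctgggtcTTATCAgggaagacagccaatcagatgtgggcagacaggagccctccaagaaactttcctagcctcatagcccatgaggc
In these 4 promoters the motif begins 183, 210, 86 and 80 bases before the start, in the order given.

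Of 9 heme synthesis genes tested, 8 fell (88.9%) and none rose, with a median log2 difference of -3.20. Alas2, the erythroid form of the first enzyme of the pathway, had 25979.8, 25693, 29179 and 34400 scaled counts in whole marrow and 4.65 to 525 (median 78.4) in AML (-8.51, SE 0.92, adjusted p = 1.91e-06), and was -7.88 without AML replicate 1. Fech, the enzyme that inserts iron, was -4.24. Alas1, the form used outside the red cell lineage, was the member not called, at -0.19 (SE 0.25). Pklr, the pyruvate kinase of red cells and liver, belongs to the glycolysis list but fell like an erythroid gene in size, from 324, 379, 389 and 455 scaled counts in whole marrow to 0 to 10.7 (median 7.50) in AML (-5.97, SE 0.47, adjusted p = 5.48e-08). Its value was -5.16 with 5 added before the logarithm. Bcl2l1, a survival gene of the BCL2 family, also fell, from 3607, 3372, 3682 and 3935 to 357 to 579 (median 407) (-3.11, SE 0.19, adjusted p = 1.80e-09).

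Eosinophil genes fell in all 10 members tested, against 16% of all genes, with a median log2 difference of -6.47, and all 10 were lower in every AML library than in any whole marrow library. Epx, the eosinophil peroxidase, had 7026, 7406, 10081 and 8460.2 scaled counts in whole marrow and 1.08 to 46.5 (median 25.3) in AML (-8.72, SE 0.65, adjusted p = 2.44e-08). The lowest AML library, replicate 1, was at or under the 3-read floor. The eosinophil-associated ribonucleases Ear1 and Ear6 had the 2 most negative log2 differences among the genes eligible for naming, -9.72 and -9.62. Ear1 had 6288, 7821, 9054 and 7699 scaled counts in whole marrow and 1.57 to 22.8 (median 13.9) in AML. With 5 added before the logarithm the differences were -9.10 and -8.90. The Ear genes are close paralogs, so the reads of each are uncertain. Prg2, the major basic protein of the granule, had 26604, 32975, 35879 and 31364 scaled counts in whole marrow and 232 to 1103 (median 283) in AML (-6.40, SE 0.41, adjusted p = 3.52e-09). The eotaxin receptor Ccr3 was -5.60 (SE 0.41) and the interleukin-5 receptor chain Il5ra -4.61 (SE 0.50). Siglecf moved least of the list, -1.96, and still showed no overlap.

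Mast cell and basophil genes fell in 8 of 10 (80.0%), with a median of -3.02. Mcpt8, a basophil protease, had 1324, 2218, 1749 and 1611 scaled counts in whole marrow and 56.7 to 574 (median 224) in AML (-3.22, SE 0.45, adjusted p = 2.83e-05). Ms4a2, the beta chain of the IgE receptor, was -3.32, Cd200r3 -3.49 and Cpa3 -2.92. AML replicate 3 was the lowest AML library for Mcpt8, Cpa3 and Ms4a2. Kit, the stem cell factor receptor, was not called, at -0.23 (SE 0.24). Gata2, shared with the progenitor list, had 406, 346, 389.5 and 369 scaled counts in whole marrow and 32.4 to 161 (median 73.2) in AML (-2.31, SE 0.38, adjusted p = 1.26e-04).

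Megakaryocyte and platelet genes fell in 15 of 19 (78.9%), with a median of -2.87, and 1 of the 15 lay in the receptor range. Pf4, platelet factor 4, had 275, 433, 250.0 and 253 scaled counts in whole marrow and 0 to 90.1 (median 20.5) in AML (-3.92, SE 0.86, adjusted p = 0.00173). AML replicate 7 was listed at 0, and the difference was -3.21 without it. Ppbp, another platelet chemokine, was -4.07, and the platelet tubulin Tubb1 -4.57 (-3.99 with 5 added before the logarithm). Itga2b, the platelet integrin chain, had 516, 716, 674 and 605 scaled counts in whole marrow and 34.7 to 218 (median 93.9) in AML (-2.68, SE 0.41, adjusted p = 6.90e-05). The members not called were Gp1ba (-0.96), Selp (-0.38), Itgb3 (-0.33) and F2rl2 (-0.06).

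The plot of gene lists shows these 5 groups at its lower end, below B lineage genes. No test of a list was made. The share of each list that rose or fell stands against the 5.22% of all genes tested that rose and the 16% that fell. Its median stands against 0.03, the median of all protein-coding genes tested. A share near those of all genes is no result about the list.

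**Figure D3:**
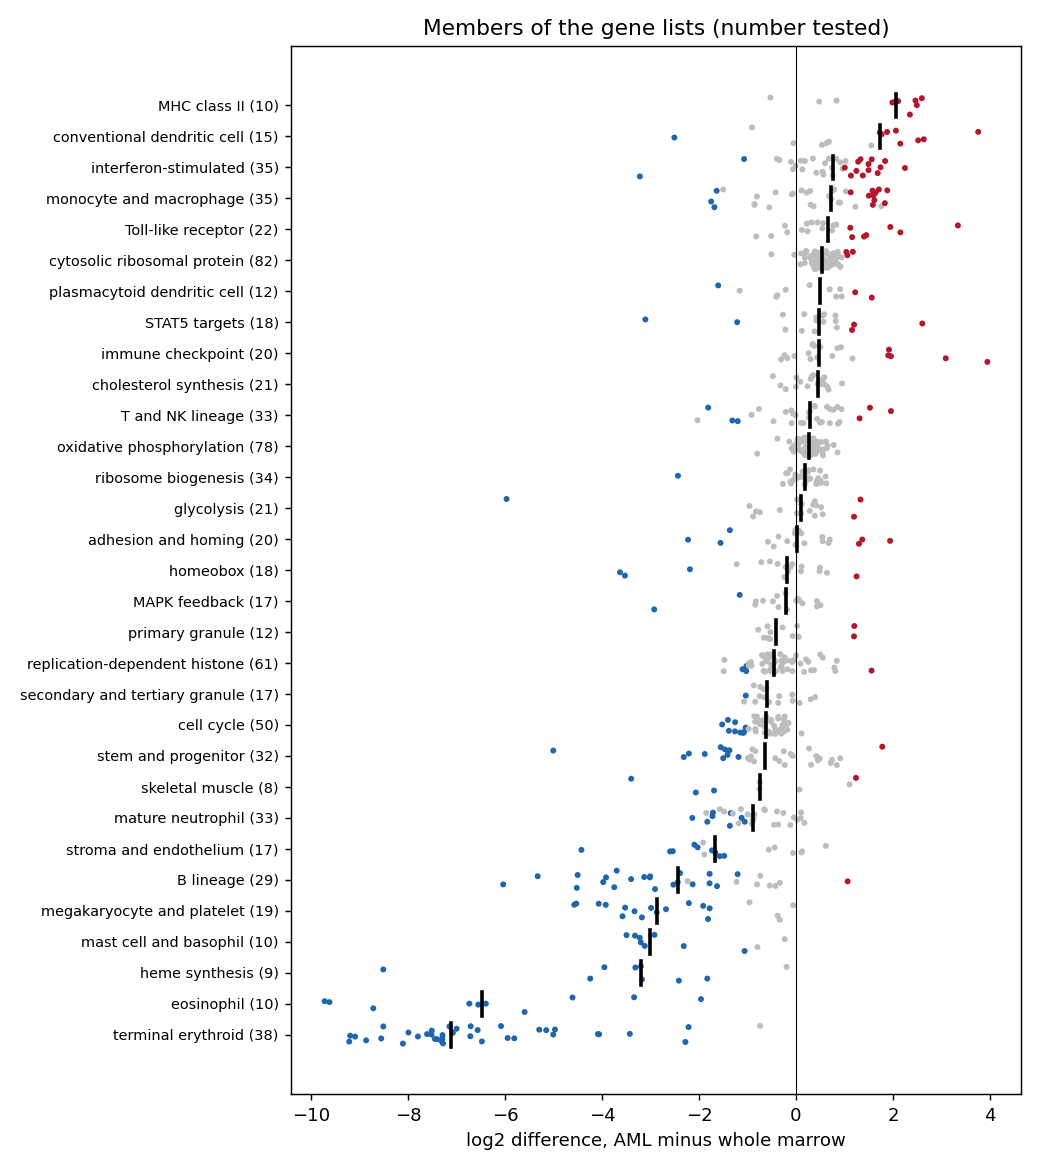
Each point is a tested member of a gene list (number tested in brackets), placed by its log2 difference of AML minus whole marrow. Red points rose, blue points fell, grey points were not called, and black bars are list medians, which run from -7.11 for terminal erythroid genes to 2.07 for MHC class II genes.

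B lineage genes fell in 21 of 29 tested (72.4%), with a median of -2.44. The recombinase gene Rag1, active in B and T cell precursors, had 1589.9, 1639, 1353 and 2932 scaled counts in whole marrow and 2.22 to 278 (median 32.1) in AML (-6.04, SE 1.06, adjusted p = 2.53e-04). Its spread among AML libraries was wide, with replicate 4 highest and replicate 3 lowest, and the groups did not overlap. Rag2 was -4.52 (-3.71 with 5 added before the logarithm) and Vpreb3, a part of the precursor B cell receptor complex, -5.33. Pax5, the B lineage transcription factor, had 1406, 1023, 1374 and 2124 scaled counts in whole marrow and 21.6 to 579 (median 130.3) in AML (-3.70, SE 0.94, adjusted p = 0.00517). For Cd79a and Pax5, AML replicate 3 was the highest AML library. Genes of antibody-secreting cells were not called: Jchain was -0.33 (SE 0.51), Mzb1 -0.54 (SE 0.41) and Sdc1 -0.80 (SE 0.32). Cd93, which is also expressed by myeloid cells and progenitors, was the member that rose, with 3199, 2706, 2841 and 3605 scaled counts in whole marrow and 2986 to 10358 (median 6879.9) in AML (1.07, SE 0.23, adjusted p = 0.00132). It missed the fold threshold without AML replicate 5, at 0.95. Without AML replicates 5 and 6, 19 of 29 fell.

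T and NK lineage genes showed no common direction: of 33 tested, 3 rose and 3 fell (9.09% each way), with a median of 0.29. Cd3e, a chain of the T cell receptor complex, had 85.4, 50.8, 77.6 and 92.3 scaled counts in whole marrow and 40.7 to 428 (median 124) in AML (0.87, SE 0.54, adjusted p = 0.223). The groups overlapped, with AML replicate 6 highest. Lck, a T cell kinase, had 248.5, 252, 278 and 222 and 131 to 672 (median 239) (0.27, SE 0.40, adjusted p = 0.633). Ncr1, an NK cell receptor, had 91.1, 70.5, 65.8 and 66.6 scaled counts in whole marrow and 11.4 to 93 (median 24.4) in AML (-1.31, SE 0.46, adjusted p = 0.0332), lower in 6 of 7 AML libraries. The interleukin-2 receptor chain Il2ra fell (-1.81), as did the NK receptor gene Klrb1c (-1.20), and the protease gene Gzma, at -2.03, was not called (adjusted p = 0.0731). Ctla4 rose with Cd5 (1.53) and Ccl5 (1.31). By voom on estimated reads none rose and 4 fell, 1 rose without AML replicate 3 or without whole marrow replicate 2, 3 or 4, and with the deposited scaling 14 rose and 1 fell. The list summed to 3218 to 12352 scaled counts in AML and 4410 to 4911 in whole marrow.

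Neutrophil genes are given in order of maturation. Of 12 primary granule genes, which mark promyelocytes, 2 rose (16.7%) and none fell, with a median of -0.40 that became 0.29 with the deposited scaling. Mpo, the myeloperoxidase, had 25858, 30278, 32585 and 26617 scaled counts in whole marrow and 7458 to 47267 (median 28034) in AML (-0.58, SE 0.42, adjusted p = 0.291). AML replicate 7 was lowest for Mpo, Elane and Prtn3, and the groups overlapped for all 3. The 2 that rose were Cebpa, the transcription factor of granulocyte commitment, and the protease-activating cathepsin Ctsc. Cebpa had 892, 1025, 775 and 752 scaled counts in whole marrow and 1391 to 2623 (median 1911) in AML (1.20, SE 0.16, adjusted p = 1.79e-05), with no overlap. Ctsc had 2409.6, 3165, 4172 and 2600.2 and 3719 to 11302 (median 6011) (1.20, SE 0.29, adjusted p = 0.0031), higher in 6 of 7 AML libraries. Ms4a3, a promyelocyte gene, had 1592, 2706, 2837 and 1825 and 430.2 to 3503 (median 1491) and was not called (-0.78).

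Of 17 secondary and tertiary granule genes, 1 fell (5.88%) and none rose, with a median of -0.60 that became 0.09 with the deposited scaling. Ltf, lactoferrin, had 168316, 189916, 164045 and 131447 scaled counts in whole marrow and 64153 to 196049 (median 92307) in AML (-0.60, SE 0.73, adjusted p = 0.547), with AML replicate 1 highest. The collagenase Mmp8 was -1.07 (adjusted p = 0.103) and the gelatinase Mmp9 -0.87 (adjusted p = 0.354). Fcnb, a ficolin, fell from 3165, 3638, 2708 and 2282 to 825 to 2126 (median 1740.5) (-1.03, SE 0.33, adjusted p = 0.021), but it missed the threshold without AML replicate 2, AML replicate 7, whole marrow replicate 1 or whole marrow replicate 2, and with the deposited scaling. The range of fitted values in those 5 settings was -0.99 to -0.34.

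Of 33 genes of mature neutrophils, 8 fell (24.2%) and none rose, with a median of -0.89. The number that fell depended on single libraries: it was 5 without AML replicate 2 or whole marrow replicate 2, and 14 without AML replicate 6. With the deposited scaling it was 1, without AML replicates 5 and 6 it was 12, with array weights 16 and with replicate number as a block 14. Cxcr2, the chemokine receptor of marrow exit, had 6604, 8688, 9016 and 7047 scaled counts in whole marrow and 1309 to 9193 (median 2586) in AML (-1.36, SE 0.46, adjusted p = 0.0282). AML replicate 6 was highest and lay above all whole marrow libraries, while 5 of 7 lay below them. Il1b, interleukin-1 beta, had 1154, 2052, 3087 and 2194 and 374 to 979 (median 506) (-1.83, SE 0.36, adjusted p = 7.54e-04), with no overlap. Cxcl2 had 66.4, 141, 226 and 129.8 and 8.90 to 407 (median 23.5) (-2.14, SE 0.76, adjusted p = 0.0357). AML replicate 6 held 407 scaled counts of Cxcl2, the AML mean without it was 20.3 in place of 75.5, and the fitted difference was then -2.77. The call was lost in 12 of the alternatives, among them without AML replicate 1, 2, 3, 4 or 5 or whole marrow replicate 2, 3 or 4, with an adjusted p of 0.0505 to 0.108. The calprotectin genes S100a8 and S100a9 were not called, at -0.91 (SE 0.50) and -0.89 (SE 0.59), nor was Asprv1 (-1.85, adjusted p = 0.0751).

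Monocyte and macrophage genes rose in 10 of 35 (28.6%) and fell in 3 (8.57%), with a median of 0.73. Without AML replicate 6, 5 fell. On the deposited scale 20 rose and 2 fell. Csf1r, the receptor for macrophage colony-stimulating factor, had 2789, 3424, 2876 and 3315 scaled counts in whole marrow and 4342 to 12494 (median 10248) in AML (1.60, SE 0.24, adjusted p = 4.63e-05), with no overlap. Ctss, a lysosomal protease used in antigen processing, had 4305, 4897, 3915 and 3539.8 and 10931 to 21217 (median 15457) (1.88, SE 0.22, adjusted p = 3.92e-06). Fcgr1, the high-affinity IgG receptor, was 1.83 (above whole marrow in 6 of 7 AML libraries), the transcription factors Irf8 and Klf4 1.64 and 1.62, and the chemokine receptor Ccr2 1.58. Ly6c2 was 0.73 and not called. Ace, an enzyme of nonclassical monocytes, had 137, 218, 119.8 and 217 scaled counts in whole marrow and 35.3 to 4483 (median 667) in AML, and its difference of 1.76 was not called (adjusted p = 0.153).

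The 3 members that fell, Vcam1, Spic and Slc40a1, are known from macrophages of the erythroblastic island and of iron recycling. Vcam1 had 1546, 1905, 1959.6 and 1763 scaled counts in whole marrow and 227 to 1677 (median 579) in AML (-1.75, SE 0.42, adjusted p = 0.0033). It lay below whole marrow in 6 of 7 AML libraries, and replicate 6 was the highest. Spic was -1.68 (SE 0.34) and the iron exporter Slc40a1 -1.64 (SE 0.27). The complement genes C1qa, C1qb and C1qc of resident macrophages were not called, at -0.81, -0.42 and -0.85.

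MHC class II genes rose in 7 of 10 tested and fell in none, with a median log2 difference of 2.07, against 5.22% of all genes that rose. H2-Ab1, a class II beta chain, had 2546, 2913, 2690.0 and 2768 scaled counts in whole marrow and 7097 to 70689 (median 13764) in AML (2.49, SE 0.42, adjusted p = 1.89e-04). All 7 AML libraries lay above whole marrow, and replicate 3 was far above the others. Without it the AML mean of H2-Ab1 was 12501 in place of 20813. H2-Eb1 had 1653, 1893, 1816 and 1773 scaled counts in whole marrow and 5044 to 48449 (median 9883) in AML (2.60, SE 0.57, adjusted p = 0.00166), with a mean of 8772 without replicate 3 in place of 14440. H2-DMb1, which acts in the loading of peptides onto class II, had 486, 673, 641 and 567 and 2058 to 6118 (median 2963) (2.47, SE 0.24, adjusted p = 6.39e-07), a narrower range. The invariant chain Cd74 was 2.03 (SE 0.58) and Ciita, the transactivator of the class II genes, 1.99 (SE 0.48). Members not called were H2-Oa (0.84), H2-Ob (-0.53) and H2-DMb2 (0.48). Without replicate 3, 7 rose and 1 fell, with a median of 1.81. B cells and dendritic cells also carry class II: the B cell genes Cd79a and Pax5 fell over all 7 libraries but were, like class II, highest among them in replicate 3, and the part of such cells in the level of replicate 3 was not tested. The summed level of the class II list was 40955 to 354013 scaled counts in AML (median 79633) and 15790 to 19922 in whole marrow.

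The proximal promoters of the class II genes are shown for the CCAAT box, the letters CCAAT on either strand, which is part of their conserved upstream block. It was present in 6 of 7 class II windows (85.7%) and in 39% of the 11194 windows of tested genes. The windows printed lie at chr17:34287824-34287886, minus strand for H2-Aa and chr17:34305793-34305866, plus strand for H2-Eb1 (RefSeq, GRCm38.p6), with capitals marking the box.
H2-Aa: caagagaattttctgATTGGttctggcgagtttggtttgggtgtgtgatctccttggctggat
H2-Eb1: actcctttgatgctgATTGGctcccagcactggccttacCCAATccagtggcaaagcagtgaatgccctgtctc
The box begins 48 bases before the start of H2-Aa, and 59 and 35 bases before that of H2-Eb1.

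Genes of conventional dendritic cells, which present antigen to T cells and depend on FLT3 signals, rose in 8 of 15 (53.3%) and fell in 1. Their median was 1.73. Flt3 (2.64), itself among the genes altered in the mice, is counted among the 8. Without AML replicate 3, 8 rose and 2 fell, with a median of 1.21. Batf3, a transcription factor of cross-presenting dendritic cells, had 7.59, 11.5, 5.26 and 12 scaled counts in whole marrow and 50.7 to 474 (median 110.0) in AML (3.76, SE 0.45, adjusted p = 5.87e-06). Each AML library exceeded each whole marrow library, with replicate 3 highest. Clec10a, a lectin receptor, had 243, 211, 242 and 191 and 461 to 2835 (median 1330.3) (2.52, SE 0.33, adjusted p = 1.34e-05). Clec9a was 2.15 (SE 0.46), Xcr1 1.73 (SE 0.64) and the integrin chain Itgax 2.06 (SE 0.42). The transcription factors Zbtb46 (0.63) and Irf4 (-0.05) and the migration receptor Ccr7 (-0.91) were not called. Cd24a fell from 40218, 40309, 40880.5 and 42908 to 5409.8 to 11196 (median 7270.4) (-2.51, SE 0.19, adjusted p = 2.70e-08). This surface protein is also abundant on erythroblasts and B cell precursors. Itgae, the integrin chain CD103, had 28.5, 8.20, 18.4 and 30.8 scaled counts in whole marrow and 51.5 to 1544 (median 84) in AML (2.58, SE 0.73, adjusted p = 0.0102). Without replicate 3 the AML mean of Itgae was 87.6 in place of 296, its difference was 1.97, and voom on estimated reads did not call it (adjusted p = 0.107).

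Of 12 plasmacytoid dendritic cell genes, 2 rose (16.7%) and 1 fell (8.33%), with a median of 0.49. Without AML replicate 2 or 7, 2 fell. Bst2, also an interferon-stimulated gene, had 452, 525, 463 and 475 scaled counts in whole marrow and 671 to 2927 (median 1459) in AML (1.56, SE 0.36, adjusted p = 0.00227). Runx2 had 637, 439, 544 and 700.0 and 461 to 2517 (median 1519) (1.22, SE 0.40, adjusted p = 0.0231), and its call was lost when whole marrow replicate 2 or 3 was left out (adjusted p = 0.0724 and 0.0544). Spib, a factor of plasmacytoid dendritic cells and B cells, fell from 2004, 1888, 1898 and 2431 to 162 to 1249 (median 966) (-1.60, SE 0.46, adjusted p = 0.0116), with no overlap. It was -0.91 and not called with the deposited scaling. Siglech, a surface marker of these cells, was -0.21 (SE 0.76) and not called.

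The plot of 16 genes by library shows the spread behind these groups.

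**Figure D4:**
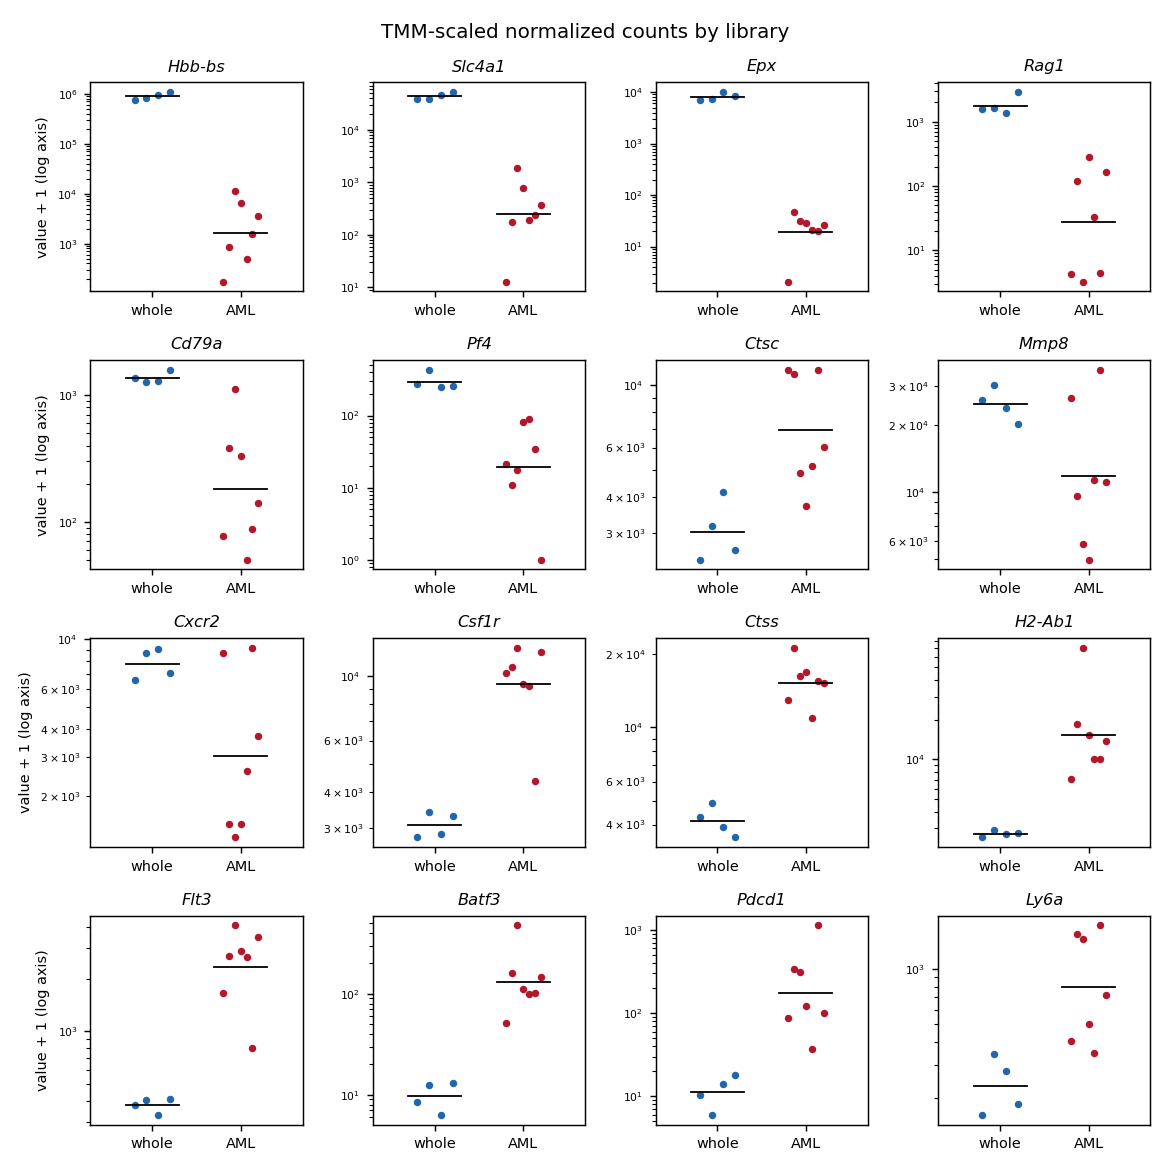
Each panel shows a gene, with 1 point per library at its scaled count plus 1 (log axis) for 4 whole marrow (blue) and 7 AML (red) libraries, and a bar at the geometric mean. Hbb-bs, Slc4a1, Epx and Pf4 separate downward in AML, H2-Ab1, Flt3, Csf1r and Batf3 upward, and Mmp8 and Cxcr2 overlap.

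Interferon-stimulated genes rose in 13 of 35 (37.1%) and fell in 2 (5.71%), with a median of 0.76. Ifi27l2a had 503, 1085, 792 and 703.9 scaled counts in whole marrow and 1040.3 to 10376 (median 4585) in AML (2.25, SE 0.52, adjusted p = 0.00261), higher in 6 of 7 AML libraries. Zbp1, a sensor of nucleic acids, had 161, 351, 336 and 280.2 and 489 to 2036 (median 846) (1.84, SE 0.30, adjusted p = 1.45e-04), with no overlap. The guanylate-binding proteins Gbp2 and Gbp3 were 1.50 and 1.69, Oas1a 1.50 and the signalling factor Stat2 1.33. Rsad2, the antiviral protein viperin, moved against them. It had 9115, 9134, 10704 and 11736 scaled counts in whole marrow and 496 to 1612 (median 1136) in AML (-3.22, SE 0.31, adjusted p = 4.80e-07), below whole marrow in all 7. Isg15 also fell (-1.07), and Ifit1 (-0.06), Cxcl10 (0.13) and Irf7 (0.91) were not called. Without AML replicate 3, 17 of 35 rose and 1 fell, and with the deposited scaling 24 rose and 1 fell. It was also 1 that fell without AML replicate 5 or whole marrow replicate 2 or 4.

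Since Gbp2 and Rsad2 moved in opposite directions, their promoters are shown for the core of the interferon-stimulated response element, GAAA and GAAA with any 2 bases between them, on either strand. That core was present in 16 of 27 windows of the list (59.3%) and in 3.33% of all 11194. The windows lie at chr3:142620589-142620662, plus strand for Gbp2 and chr12:26456453-26456587, minus strand for Rsad2 (RefSeq, GRCm38.p6), and capitals mark the core, read here on the other strand.
Gbp2: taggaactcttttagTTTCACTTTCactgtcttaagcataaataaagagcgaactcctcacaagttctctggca
Rsad2: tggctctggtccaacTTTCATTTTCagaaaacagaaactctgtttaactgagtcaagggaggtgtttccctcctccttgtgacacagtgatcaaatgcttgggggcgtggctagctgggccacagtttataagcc
The core begins 59 bases before the start of Gbp2 and 120 bases before that of Rsad2, so both genes hold it.

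Toll-like receptor genes, which sense microbial products, rose in 7 of 22 (31.8%) and fell in none, with a median of 0.65. Tlr11, a receptor for a parasite profilin, had 26.6, 11.5, 10.5 and 17.1 scaled counts in whole marrow and 80.9 to 1189 (median 125) in AML (3.34, SE 0.56, adjusted p = 1.58e-04). Replicate 3 stood at 1189, and the AML mean without it was 122 in place of 275. Tlr9, a receptor for DNA in endosomes, had 171, 225, 211 and 306 and 322 to 1752 (median 1081) (1.95, SE 0.40, adjusted p = 0.00101). Tlr3, which binds double-stranded RNA, had 37.9, 22.9, 25 and 35.9 and 68 to 824 (median 109.7) (2.15, SE 0.54, adjusted p = 0.00472), and its AML mean was 107 without replicate 3 in place of 209.5. The other members that rose were Tlr12 (1.45), Tlr7 (1.40), Ticam2 (1.16) and Unc93b1 (1.12), the carrier of endosomal receptors. The surface receptors Tlr2 (0.22), Tlr4 (-0.18) and Tlr5 (-0.82) were not called. As many as 15 of 22 rose with the deposited scaling.

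Immune checkpoint genes rose in 5 of 20 (25%) and fell in none, with a median of 0.47. Pdcd1, which encodes the inhibitory receptor PD-1, had 9.49, 4.92, 13.2 and 17.1 scaled counts in whole marrow and 36 to 1131 (median 122) in AML (3.95, SE 0.73, adjusted p = 3.82e-04). Replicate 6 was highest and replicate 5 lowest, and all 7 lay above whole marrow. Without replicate 6 the AML mean of Pdcd1 was 165 in place of 303. Tigit had 5.69, 4.92, 3.95 and 5.13 and 7.05 to 431 (median 51.2) (3.09, SE 0.77, adjusted p = 0.00453), again with replicate 6 highest and a mean of 45.6 without it in place of 101. All 4 whole marrow values of Tigit equal the 3-read floor of their library, so the difference is measured against a group at the floor. Ctla4 had 30.4, 18, 18.4 and 17.1 and 27 to 264 (median 72.2) (1.96, SE 0.57, adjusted p = 0.0125), above whole marrow in 5 of 7 AML libraries. Havcr2 and Lag3 also rose, with 1.92 (SE 0.48) and 1.90 (SE 0.49). Voom on estimated reads called neither Pdcd1 (adjusted p = 0.0537) nor Tigit (0.101) nor Ctla4 (0.0879). On the deposited scale 13 of 20 rose, and 9 with the receptor level subtracted. Ligands were not called: Cd274, which encodes PD-L1, was 0.35 (SE 0.45) and Pdcd1lg2 0.86 (SE 0.74). These receptors are known from T and NK cells, whose list is described above and whose marker Cd3e was not called. Among the AML libraries, Cd3e, Pdcd1 and Tigit were each highest in replicate 6 and lowest in replicate 5. Ctla4 was highest in replicate 3 and lowest in replicate 1. The part of such cells in the rise was not tested.

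Of the genes altered in the mice, Flt3 rose and Nup98 and Nsd1 were not called. Flt3 had 376, 403, 328 and 408 scaled counts in whole marrow and 803 to 4069 (median 2706) in AML (2.64, SE 0.31, adjusted p = 5.53e-06). All 7 AML libraries exceeded whole marrow, with replicate 6 lowest. Nup98 had 2146, 2336, 2468 and 2870.2 and 2229.7 to 3051 (median 2673) (0.13, SE 0.11, adjusted p = 0.391), and Nsd1 4804, 5199.8, 5156 and 6589 and 5176 to 6888 (median 6136) (0.17, SE 0.12, adjusted p = 0.298). Gene totals cannot separate the fusion or the duplicated allele from the endogenous genes, and reads of a human transgene were not analysed here.

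Homeobox genes, among them members of the HOX, MEIS and PBX families, rose in 1 of 18 (5.56%) and fell in 3 (16.7%), shares near the 5.22% and 16% of all genes tested. Their median of -0.19 was 0.49 with the deposited scaling and 0.31 with the receptor level subtracted. Hoxa7 had 65.8, 39.3, 73.7 and 39.4 scaled counts in whole marrow and 75.6 to 185 (median 137) in AML (1.25, SE 0.26, adjusted p = 0.00115), with no overlap. Hoxa9 had 146, 102, 69.7 and 49.5 and 57.8 to 188 (median 119) (0.49, SE 0.31, adjusted p = 0.228), and 2 AML libraries lay above whole marrow. Meis1, the partner of HOXA9, had 273, 228, 204 and 216 and 141 to 332 (median 209) (-0.11, SE 0.22, adjusted p = 0.724). The difference of Meis1 was 0.58 with the deposited scaling. Hoxa10 had 30.4, 13.1, 19.7 and 15.4 and 1.08 to 22.9 (median 8.91) (-1.22, SE 0.51, adjusted p = 0.0683), levels within the receptor range, and became 0.45 when the receptor level was subtracted. Pbx3 was -0.54 (adjusted p = 0.0445), below the fold threshold, and 0.15 with the deposited scaling, and Hoxb4 was 0.49 (adjusted p = 0.0772). The 3 that fell were Hoxb8 (-3.63), Meis2 (-3.53) and Nkx2-3 (-2.19), and for Hoxb8 and Nkx2-3 the whole marrow level lay in the receptor range.

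Stem and progenitor genes fell in 10 of 32 (31.3%) and rose in 1 (3.13%), with a median of -0.63 that became 0.06 with the deposited scaling. Tal1, shared with the erythroid list, had 2597, 2879, 3359.9 and 3916 scaled counts in whole marrow and 54.5 to 209 (median 96.9) in AML (-5.01, SE 0.28, adjusted p = 7.59e-10). Others that fell were the stem cell transcription factors Mecom (-1.46) and Prdm16 (-1.18). With the deposited scaling 4 fell and 8 rose, and with the receptor level subtracted 4 fell and 3 rose. For 2 of the 10 that fell the whole marrow level lay in the receptor range. When a mean of at least 50 was required, 6 of 27 fell and 1 rose. Ly6a, which encodes the surface antigen Sca-1 and is also induced by interferon, had 159, 344, 276 and 183 scaled counts in whole marrow and 347 to 1713 (median 715) in AML (1.78, SE 0.43, adjusted p = 0.00367), with no overlap. Cd34 was 0.42 (SE 0.36) and Myb -0.84 (SE 0.22), both not called.

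STAT5 and the MAP kinases act downstream of FLT3. Of 18 STAT5 targets, 3 rose (16.7%, against 5.22% of all genes tested) and 2 fell (11.1%, against 16%), with a median of 0.48. Socs2, a feedback inhibitor of cytokine signalling, had 127, 54.1, 82.9 and 83.6 scaled counts in whole marrow and 147 to 1072 (median 702) in AML (2.61, SE 0.43, adjusted p = 1.38e-04). Replicate 6 was the lowest AML library and lay just above the highest whole marrow library. Bcl2 rose by 1.16 and Ccnd1 by 1.20, while Pim1 (0.12), Cish (0.81) and Socs3 (0.38) were not called. The larger of the 2 falls was that of Bcl2l1 (-3.11), whose values are given above. Osm, oncostatin M, fell from 594, 759, 1162 and 805 to 217 to 977 (median 306) (-1.21, SE 0.36, adjusted p = 0.0132), with replicate 6 highest in AML. It was not called without whole marrow replicate 3 (adjusted p = 0.055) or with the deposited scaling (0.227). Of 17 MAP kinase feedback genes, 2 fell (11.8%) and none rose, with a median of -0.21 that was 0.47 with the deposited scaling. Spry2 had 152, 138, 165 and 114 and 36.6 to 148 (median 65.7) (-1.16, SE 0.34, adjusted p = 0.0136) and was not called with the deposited scaling (adjusted p = 0.244), and Spry4 fell (-2.92 (SE 0.43)) from a whole marrow level within the receptor range. Dusp6 (-0.39) was not called, nor were Dusp2 (-0.83) and Fos (-0.84).

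Genes of DNA replication and mitosis fell in 9 of 50 (18%, against 16% of all genes tested) and rose in none. Their median was -0.61 under TMM, with 49 of 50 differences below 0 and 28 of 50 genes lower in every AML library than in any whole marrow library (15.8% of all genes). With the deposited scaling the median was 0.08 and none of the 50 was called. Ccne2, an S phase cyclin, had 1320.3, 1896, 1456 and 1989.7 scaled counts in whole marrow and 278 to 733 (median 632) in AML (-1.52, SE 0.26, adjusted p = 2.08e-04). Ccne1 had 626, 859, 865 and 911 and 161 to 399 (median 316) (-1.40, SE 0.20, adjusted p = 3.31e-05), and Cdc6, which loads the replicative helicase, 1525, 1661, 1825 and 1942 and 363 to 807 (median 727) (-1.38, SE 0.18, adjusted p = 1.36e-05). AML replicate 3 was the lowest library for all 3, and the groups did not overlap. Without AML replicate 3, 5 of the 50 fell. Mki67, a marker of cycling cells, fell (-1.07 (SE 0.23)), and Mcm3 (-0.25) and Cdc20 (-0.19) were not called. Of 61 replication-dependent histone genes, 1 rose (1.64%) and 3 fell (4.92%), with a median of -0.45 that was 0.25 with the deposited scaling, and their near-identical copies make single values uncertain. The number that fell was 0 without AML replicate 3, 7 without AML replicate 5 and 8 without AML replicate 1. H2bc18 had 10586, 7919.7, 7031 and 7751 and 2012 to 5853 (median 4168) (-1.10, SE 0.25, adjusted p = 0.00202), and missed the fold threshold without AML replicate 3 (-0.95) or whole marrow replicate 1 (-0.98). H2ac13 had 493, 100.5, 76.4 and 182 and 177 to 1413 (median 378) (1.56, SE 0.60, adjusted p = 0.0497) with overlapping groups, and was lost in 17 of the alternatives. H4c17 (-1.49) and H2ac23 (-1.48) were not called.

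Of 82 cytosolic ribosomal protein genes, 3 rose (3.66%) and none fell, with a median of 0.54, and 80 of the 82 differences were above 0. In 36 of the 82 every AML library lay above every whole marrow library, against 13.5% of all genes tested. With the deposited scaling 71 rose, and the list median of 1.23 stood beside a median of 0.72 over all protein-coding genes. Rps21 had 719, 979, 758 and 630.4 scaled counts in whole marrow and 1387 to 2655 (median 1519) in AML (1.17, SE 0.25, adjusted p = 0.00137). Rps14 and Rps10 were 1.06 and 1.04, and without whole marrow replicate 1 they were 0.91 and 0.73, below the fold threshold. Rps14 was also below it without AML replicate 4 (0.93), and Rps10 without AML replicate 3 (0.97). Ribosomal proteins have many processed pseudogenes, so single values are uncertain. Of 34 genes in the ribosome biogenesis list, 1 fell (2.94%) and none rose. That gene was Odc1, the ornithine decarboxylase of polyamine synthesis and not itself a ribosome assembly factor. It had 6019.7, 5691, 6451 and 6863 scaled counts in whole marrow and 865 to 1805 (median 1131) in AML (-2.43, SE 0.15, adjusted p = 3.04e-09). Utp20 (0.62) and Mybbp1a (0.61) were below the fold threshold.

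None of 78 genes of oxidative phosphorylation was called, with a median of 0.28. The members farthest from 0 were Atp5e (0.86), Cox6b2 (-0.80) and Ndufa6 (0.78), with an adjusted p of 0.0025, 0.0049 and 4.70e-05. In limma, 28 of the 78 had an unadjusted p under 0.05 and 19 an adjusted p under 0.05, all below the fold threshold. Voom called none, and 1 rose with the replicate block or with the receptor level subtracted. On the deposited scale 32 of 78 rose. None of 21 cholesterol synthesis genes was called either, with a median of 0.45 and Mvd (0.95), Ebp (0.67) and Mvk (0.65) highest. In limma, 12 of the 21 had an unadjusted p under 0.05 and 8 an adjusted p under 0.05, again below the fold threshold. Voom called none, and 1 rose with the replicate block, with the receptor level subtracted, and without AML replicate 5, AML replicates 5 and 6 or whole marrow replicate 2. On the deposited scale 13 of 21 rose. Of 21 glycolysis genes, 2 rose (9.52%) and 1, Pklr, fell (4.76%). Without AML replicate 1, 4 or 6 or whole marrow replicate 1, 2 fell. Pfkp, a phosphofructokinase, had 1112, 1200.5, 1307 and 1048 scaled counts in whole marrow and 2096 to 3753 (median 2720.2) in AML (1.20, SE 0.15, adjusted p = 8.17e-06), with no overlap. Aldoc was 1.33 and was not called by voom on estimated reads (adjusted p = 0.0515).

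Genes of stroma and endothelium fell in 9 of 17 (52.9%) and rose in none, with a median of -1.66. Cxcl12, the niche chemokine that retains blood cells in marrow, had 1303, 1599.9, 1238 and 1355 scaled counts in whole marrow and 37.8 to 904 (median 445) in AML (-2.10, SE 0.68, adjusted p = 0.0221). Replicate 3 was lowest, and the call was lost without whole marrow replicate 2 (adjusted p = 0.0553) and with the deposited scaling (0.0685). Ibsp, a bone matrix protein, had 357, 323, 305 and 272 and 0 to 71 (median 15.7) (-4.43, SE 0.83, adjusted p = 4.60e-04), and was -3.78 without AML replicate 3, which was listed at 0. Col1a2 had 259.9, 254, 224 and 185 and 23.9 to 121 (median 63.7) (-2.03, SE 0.52, adjusted p = 0.00567), while Col1a1 (-0.56 (SE 0.99)) and the endothelial cadherin Cdh5 (0.62 (SE 0.75)) were not called. The 7 AML libraries of Col1a1, at 25.3 to 55.6 scaled counts, nevertheless lay below all 4 of whole marrow, at 57.9 to 68.3. Its SE of 0.99 is not that of these 2 groups alone, since the fit pools the spread of the lineage-negative libraries. On the deposited scale 3 of 17 fell, and with any 1 of the 4 whole marrow libraries left out it was 6. Of 8 skeletal muscle genes, 1 rose (12.5%) and 3 fell (37.5%). Their median of -0.75 turned to 0.51 with quantile scaling and 1.01 with the receptor level subtracted. Tnni2, a fast muscle troponin, rose (1.24), but its call was lost without any 1 of AML replicates 2, 3, 4 and 7 and whole marrow replicates 2, 3 and 4 (adjusted p = 0.0537 to 0.0838). Ttn (1.11) and Tnnt1 (-0.75) were not called.

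Adhesion and homing genes rose in 3 of 20 and fell in 3 (15% each way), with a median of 0.03 that was -0.04 with quantile scaling. Itgb7, an integrin beta chain that pairs with Itgae or Itga4, had 2233, 2618, 2078 and 2248 scaled counts in whole marrow and 6322 to 12070.5 (median 8787) in AML (1.94, SE 0.18, adjusted p = 2.85e-07), with no overlap. Icam1 had 273, 375, 431 and 424 and 657 to 1675 (median 943) (1.37, SE 0.20, adjusted p = 4.40e-05). S1pr1, the receptor of exit from tissue into blood, fell from 527, 387, 469.8 and 531 to 39.9 to 635 (median 77.9) (-2.23, SE 0.54, adjusted p = 0.00345). Replicate 3 alone lay above whole marrow, and the AML mean of S1pr1 without it was 82.5 in place of 161. Cxcr4, the receptor of Cxcl12, was -0.01 (SE 0.20) and not called.

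The remaining genes among the 15 largest rises belong to no common group. Rnase2a (ENSMUSG00000047222), a ribonuclease of the same family as the Ear genes that fell, had 7.59, 3.28, 5.26 and 1.71 scaled counts in whole marrow and 18 to 1087 (median 86.1) in AML (3.97, SE 0.90, adjusted p = 0.00218). Replicate 6 held 1087, the AML mean without it was 63.8 in place of 210.0, the difference was then 3.34, and with 5 added before the logarithm it was 3.21. Whole marrow replicates 2 and 4 lay under the 3-read floor, and voom did not call it (adjusted p = 0.0938). Ms4a4a had 13.3, 19.7, 18.4 and 29 scaled counts in whole marrow and 100.3 to 532 (median 194) in AML (3.32, SE 0.57, adjusted p = 2.12e-04). Ifi205, a member of the AIM2-like receptors, had 99.6, 141, 65.3 and 84.5 and 392 to 1814 (median 855) (3.19, SE 0.37, adjusted p = 4.45e-06). Paralogs of all 3 genes are close, so the reads of each are uncertain.

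Shtn1, which encodes shootin 1, had 129, 121, 129 and 123 scaled counts in whole marrow and 576 to 1276 (median 892) in AML (2.78, SE 0.36, adjusted p = 1.30e-05), a narrow range on both sides. Anpep, the aminopeptidase CD13 of myeloid cells, had 22.8, 22.9, 18.4 and 37.6 and 63.5 to 1039.8 (median 149.9) (2.86, SE 0.61, adjusted p = 0.00125), and its mean without replicate 3 was 156 in place of 283. Ddr1, a collagen receptor kinase, had 58.8, 60.7, 76.3 and 90.5 and 107 to 1147 (median 615) (2.75, SE 0.59, adjusted p = 0.00146). Tppp3, a tubulin-binding protein, had 37.9, 55.7, 73.7 and 42.7 and 101 to 2206 (median 237) (2.66, SE 0.56, adjusted p = 0.00121), and without replicate 3 its AML mean was 264 in place of 541. For these 4 genes every AML library exceeded every whole marrow library, as it did for 13.5% of all genes tested. For the low genes Rnase2a, Pdcd1, Batf3, Tlr11, Ms4a4a, Tigit, Anpep, Itgae, Tlr3, Ctla4, Tppp3 and Tnni2 the fold change was over 1.5 times larger when the receptor level was subtracted, with log2 differences from 1.86 for Tnni2 to 6.41 for Tlr11. The level subtracted was 8.98 to 28.7 scaled counts in whole marrow and 0.403 to 3.52 in AML, and results under 0 were set to 0. For genes this low in whole marrow a larger rise follows from the arithmetic and is no added evidence of a rise.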

How the data were processed

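The deposited table holds normalized counts for 38315 genes, of unit signal: the authors' counts divided by size factors, as the name of the deposited table states, so the values are not whole numbers. STAR, Partek, DESeq2 and mm10 are named in the submitters' processing notes without versions, and the strand used in counting is not given in the sources used here, so reads of overlapping antisense genes cannot be told apart. Start positions in the table matched the GRCm38 annotation for 861 of 38066 shared gene IDs, although lengths matched for 37557, so no coordinates of the table are printed. Whole reads could not be recovered for all genes, and depths are estimates from the most frequent low value, worth 1 read.

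Samples were grouped by their titles. Genes with a value of at least 10 in at least 4 libraries were rescaled by trimmed mean of M values (30% of ratios and 5% of levels trimmed at each end). The log2 of the value + 1 was fitted with limma 3.58.1 (R 4.3.3; trend, 3 group means on 15 libraries, two-sided, Benjamini-Hochberg over 18941 genes). Sequences and motifs were read with Python 3.11.15 and pandas 2.3.3. The fit was run on simulated data with few changed genes, drawn alike in both directions, and no background signal. That run cannot show how the scaling and fit deal with the unequal falls or the receptor signal of these libraries. The gene lists and the comparison were chosen with earlier results of these data known. Named were the 15 largest called differences in each direction with no overlap and a mean of at least 100 (predicted genes skipped), the 3 largest of each list with a mean of at least 50 plus the largest called opposite one, the cell type markers, and Flt3, Nup98, Nsd1, Hoxa7, Hoxa9, Hoxa10, Meis1 and Pbx3. Further list members were chosen after their values were seen. Some genes that met the rule are not reported here. Alternatives covered the pseudocount, filters, scalings, weights, voom on estimated reads, the replicate number as a block, and leaving out libraries.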

Additional observations from a re-analysis of the deposited data

Results flagged for a closer look

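Of 236 gene and group combinations examined among the named genes, 15 held a library whose distance from its nearest neighbour was large for the range of its group (Dixon's 95% limit). Chance alone flags about 1 in 20 such groups. AML replicate 3 gave 9 of the 15. It was the highest AML library for H2-Ab1 (70689 scaled counts, next 18607), H2-Eb1 (48449, next 12589), Itgae (1544, next 187), Tlr11 (1189, next 181) and Tlr3 (824, next 186). It was the lowest for the cell cycle genes Cdc6 (363, next 617), Ccne2 (278, next 503) and Ccne1 (161, next 299), and for Cd93 (2986, next 6220). AML replicate 6 was highest for the cytokine genes Osm (977, next 406) and Cxcl2 (407, next 35.6). AML replicate 1 was lowest for Epx (1.08, next 19.4) and for Pklr, which was listed at 0 (next 4.95). In whole marrow, replicate 1 was highest for Ctla4 (30.4, next 18.4) and lowest for Ccne1 (626, next 859).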

How the results depend on the processing

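Under the deposited scaling 4122 genes were higher, and Meis1 (0.58) and Pbx3 (0.15) changed sign. Quantile scaling gave 1274 higher genes, and subtracting the receptor level gave 1643 and turned Hoxa10 to 0.45. Array weights turned Meis1 to 0.070. Fewer or more genes tested set the falls: 746 with a mean of at least 50 and 6582 with all non-zero genes. Of 17 stroma genes 3 fell under the deposited scaling. Apart from the scalings and filters just named, the cause of these changes was not tested. Leaving out 1 library at a time gave 671 (AML 2) to 852 (AML 6) higher and 2030 (whole marrow 1) to 2381 (AML 6) lower genes. Over the same omissions the genes that fell numbered 37 for the terminal erythroid list, 10 for eosinophil, 8 for heme, 7 to 8 for mast cell and basophil, 15 to 16 for megakaryocyte, 19 to 23 for B lineage and 6 to 9 for stroma, and those that rose 7 for MHC class II and 7 to 9 for conventional dendritic cells. With the replicate number as a block 871 genes rose and 2287 fell. Those numbers do not pair the samples: same-numbered AML and whole marrow libraries deviated with correlations of -0.27 to 0.08, and 0 of 4 whole marrow libraries correlated best with their own number. For single named genes, 3283 values kept direction and call, 75 lost the call, 56 gained one and 4 reversed. Depth limits low genes in whole marrow most, where 3 reads are worth up to 5.69 scaled counts.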

Other observations

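Further gene families, chosen after their values were seen, were read from the same fit. Their shares stand against the 5.22% of all genes tested that rose and the 16% that fell. AIM2-like receptors, which sense DNA or are induced by interferon, rose in 9 of 12 (75%) and fell in 1 (8.33%). Their median log2 difference was 1.30. Ifi207 was 1.92 (SE 0.38), Ifi211 1.87 (SE 0.34) and Ifi203 1.62 (SE 0.27), each above whole marrow in 7 of 7 AML libraries. Ifi214 fell (-1.04), and Aim2 itself was 0.87 and not called. The family is a cluster of close paralogs, so single values are uncertain. Of 12 MS4A genes 6 rose (50%) and 3 fell (25%). Ms4a6c was 1.71 (SE 0.19) and Ms4a6b 1.66 (SE 0.24), while Ms4a1, which encodes CD20 of B cells, was -3.40 (SE 0.80).

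MHC class I presentation genes rose in 7 of 16 (43.75%) and fell in none, with a median of 0.92. The transactivator Nlrc5 was 1.65 (SE 0.23), the peptide transporter Tap1 1.56 (SE 0.17), and the immunoproteasome genes Psmb9 and Psmb8 1.42 and 1.39. H2-D1 (0.89) and B2m (0.56) were not called. Of 14 cathepsin genes 5 rose (35.7%) and 3 fell (21.4%, a share near the 16% of all genes tested). Ctsa was 1.30 (SE 0.15) and Ctsz 1.21 (SE 0.15). Ctse, known from red cell precursors, was -4.56 (SE 0.20), with a mean of 450 scaled counts in AML and 10354 in whole marrow. Psap, the precursor of the saposins of the lysosome, was 1.61 (SE 0.21), with means of 90854 and 29721. Of 6 genes grouped by Fc gamma receptor symbols 3 rose (50%). They include Fcgrt at 2.15 (SE 0.32), which encodes the neonatal Fc receptor and is not a classical Fc gamma receptor. None of 6 NADPH oxidase genes was called by limma (0 at an unadjusted p under 0.05), and Cybb had means of 30612 and 27286.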
